A study of Mus musculus with 10 samples.

Results

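The genes named Cfap, for cilia and flagella associated protein, were followed in the nasal respiratory epithelium of mouse embryos with and without the miR-34 and miR-449 microRNAs. Members were all genes whose platform symbol starts with Cfap and a number, which gave 32 of the 22180 genes named on the array, each read by 1 probe set. All embryos were at E16.5, 1 array per embryo. The WT group held 5 wild-type embryos, 4 labelled female and 1 male (WT 3). The TKO group held 5 embryos that lacked all 3 loci of this family (miR-34a-/-, miR-34b/c-/- and miR-449a/b/c-/-), of which TKO 1 and TKO 3 were female and the other 3 male. The sources used here give no strain, litter or extent of each deletion, so p-values measure the spread between these embryos. The epithelium was cut from formalin-fixed paraffin sections by laser, and each level given here is a log2 RMA value, on which a difference of 1 is a doubling.

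A motile cilium is a bundle of microtubule doublets around a central pair, moved by dynein motors and tuned by radial spokes and linkers between doublets. Multiciliated cells of the nasal lining carry many such cilia, which move mucus. Cfap proteins, many of them first catalogued in algal flagella, sit in nearly every part of this machine: inside the doublets, in the central apparatus, in the spokes and in the regulators of the inner dynein arms. Loss of several of them causes primary ciliary dyskinesia or malformed sperm tails.

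The microRNAs missing from the TKO embryos share 1 seed, the stretch that pairs with target transcripts. Their 5p arms are shown because this seed defines the family, with bases 2 to 8 in capitals (RefSeq, GRCm38.p6, 4 arms matched by name):
miR-34a-5p, chr4:150068473-150068494, plus strand: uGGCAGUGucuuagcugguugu
miR-34b-5p, chr9:51103610-51103632, minus strand: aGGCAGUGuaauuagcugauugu
miR-449a-5p, chr13:113037549-113037570, plus strand: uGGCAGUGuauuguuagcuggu
miR-449c-5p, chr13:113036008-113036028, plus strand: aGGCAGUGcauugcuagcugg
Each of the 4 carries the seed GGCAGUG.

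The knockout was checked on the probe sets of the targeted microRNAs: the Mir449c probe set read 6.80 to 7.56 in WT embryos against 3.16 to 4.39 in TKO embryos, and Mir449a 6.86 to 7.56 against 5.06 to 5.76. Mir449b stayed bright in TKO embryos, at 11.67 to 12.08 against 12.13 to 12.23 in WT, a 1.26-fold difference that passed (limma adjusted p = 0.0259), although the labels give its locus as deleted. Mir34b read 5.40 to 5.57 in TKO against 5.61 to 5.98 in WT and did not pass (limma adjusted p = 0.129), while Mir34a and Mir34c were below the filter on dim genes and check nothing. All 8 listed epithelial markers and all 9 markers of multiciliated cells passed the filter on dim genes. So did all 9 of olfactory neurons, 9 of 9 of skeletal muscle and 11 of 11 of mesenchyme on the array, a filter set only at the 25th percentile of all named genes. In bulk tissue, fewer multiciliated cells and less RNA per cell cannot be told apart. With 5 arrays a genotype, the precision is limited by their number.

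Few Cfap genes passed the test between genotypes, and those that did were lower without the microRNAs. Of 31 members above the filter on dim genes, 2 fell, Cfap43 and Cfap58, none rose and 29 did not pass (limma with sex in the model, Benjamini-Hochberg adjusted p under 0.05 over all 16635 genes tested). Over all genes tested, 1.12% were lower and 4.39% higher in TKO by the same rule. At an unadjusted limma p under 0.05, 8 members (25.8%) were lower, against 7.72% of all genes, and 2 (6.45%) were higher, against 13.2%. That count of 8 was 2 without WT 3 and 2 among females only, and 11 without WT 5 or without TKO 3. Without WT 1, WT 4 or TKO 1 it was 5. No share over all genes at an unadjusted p is given for these settings. The median log2 change, TKO minus WT, was -0.10 over the 31 members, beside -0.00052 over all genes tested. Of the members, 19 of 31 (61.3%) were below 0, against 50.2% of all genes. Their changes were small: 12 of 31 were under 0.1 in size, 2 were beyond 0.5, and the largest upward change was 0.26. Only the 2 called members had arrays that did not overlap between genotypes, both lower in TKO, against 2.07% of all genes lower and 5.54% higher without overlap.

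**Figure D1:**
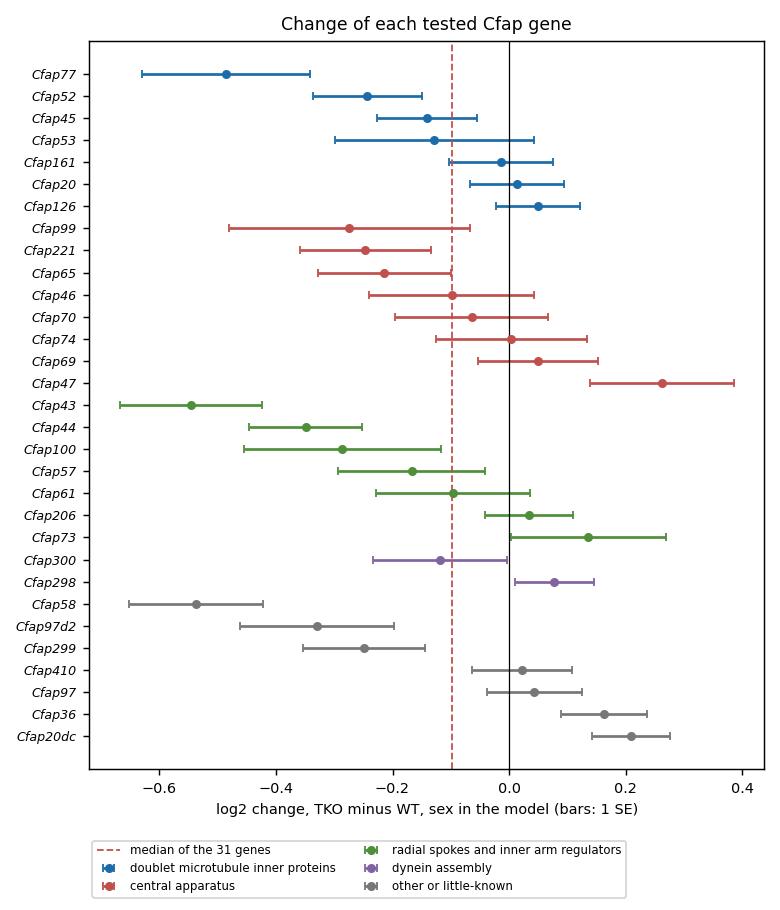
Log2 change (TKO minus WT, x axis) of each of the 31 tested Cfap genes (y axis), coloured by role, with bars of 1 SE; the dashed line is the median of -0.10. Cfap43 and Cfap58, at -0.55 and -0.54, lie farthest to the left, and Cfap47, at 0.26, farthest to the right.

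Cfap43 and Cfap44 are partners in the tether that holds an inner dynein motor to the doublet, and they lead the group of 7 radial spoke and inner arm genes, of which 1 fell and 6 did not pass. Cfap43 read 9.27, 9.53, 9.65, 9.65 and 9.11 in WT 1 to WT 5, and 8.73, 9.09, 9.09, 9.04 and 8.84 in TKO 1 to TKO 5. Every TKO embryo lay below every WT embryo, with WT 5 and TKO 3 almost touching. Its WT mean of 9.44 ± 0.24 compared with a TKO mean of 8.96 ± 0.17 (SD, n = 5 each), and with sex in the model Cfap43 fell 1.46-fold (log2 change -0.55, SE 0.12, limma adjusted p = 0.0239). The exact permutation p was 0.00794, the smallest that 5 against 5 can give.

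Cfap44 had WT values of 10.13, 10.31, 10.48, 10.32 and 9.95 and TKO values of 9.88, 10.06, 10.00, 9.92 and 9.84. Here WT 5 sat among the TKO embryos and the other 4 WT embryos above all of them. Its log2 change of -0.35 (SE 0.097) missed the threshold (limma adjusted p = 0.0590). In the same group Cfap100, a subunit of the complex that modifies an inner arm, had a change of -0.29, and Cfap73, the other subunit of that complex, had 0.14. Cfap57, which is needed to assemble certain inner arms, was at -0.17. Cfap61, of the calmodulin and spoke complex, was at -0.10 and Cfap206, of a radial spoke base, at 0.03. The median of the 7 was -0.17.

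**Figure D2:**
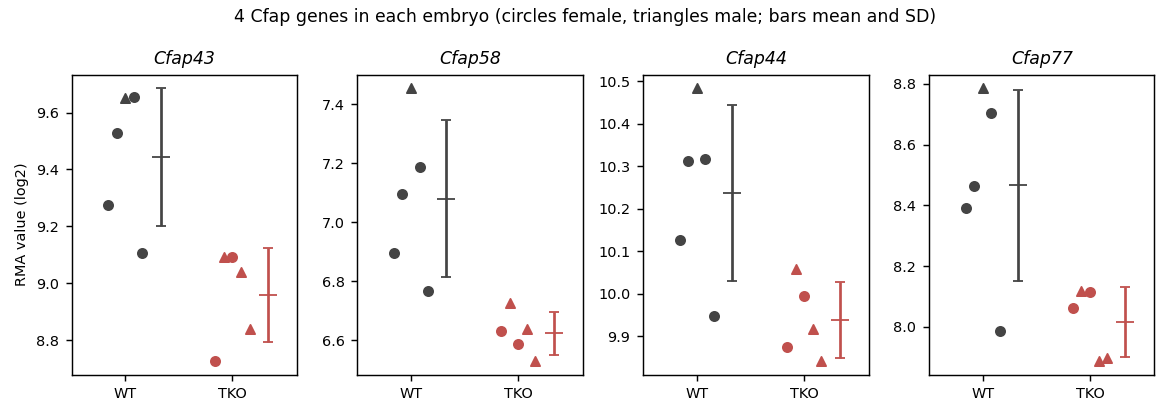
RMA values (log2, y axis) of Cfap43, Cfap58, Cfap44 and Cfap77 in each WT and TKO embryo, circles for females and triangles for males, with the mean and SD beside them; each panel has its own axis. TKO values of Cfap43 and Cfap58 lie below all WT values, while for Cfap44 and Cfap77 WT 5 lies among the TKO embryos.

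Cfap58, a coiled-coil protein known for its part in building the sperm tail, was the other gene that fell. WT 1 to WT 5 read 6.90, 7.09, 7.45, 7.19 and 6.76, and TKO 1 to TKO 5 read 6.63, 6.73, 6.59, 6.64 and 6.53. The TKO embryos lay close together below all WT embryos, and WT 3 was the highest. Its mean went from 7.08 ± 0.27 to 6.62 ± 0.07 (SD, n = 5 each), a 1.45-fold decrease with sex in the model (log2 change -0.54, SE 0.12, limma adjusted p = 0.0202, exact permutation p = 0.00794).

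Both calls were lost without WT 3, the only WT male. Then the log2 change of Cfap43 was -0.48 (limma adjusted p = 0.174) and that of Cfap58 was -0.38 (limma adjusted p = 0.191), and among females only the changes were the same with limma adjusted p of 0.253 and 0.259. Each call was kept in 18 of 22 other settings. The call of Cfap43 was also lost without TKO 1 (-0.47, limma adjusted p = 0.101) and that of Cfap58 without TKO 3 (-0.58, limma adjusted p = 0.0619). With a score of non-epithelial markers as a covariate the changes were larger, -0.66 and -0.60, and missed the threshold as well (limma adjusted p = 0.0902 and 0.107). The adjusted p of Cfap43 ran from 0.00686 to 0.253 over the settings and that of Cfap58 from 0.00678 to 0.259, and both stayed below 0 in all 22.

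**Figure D3:**
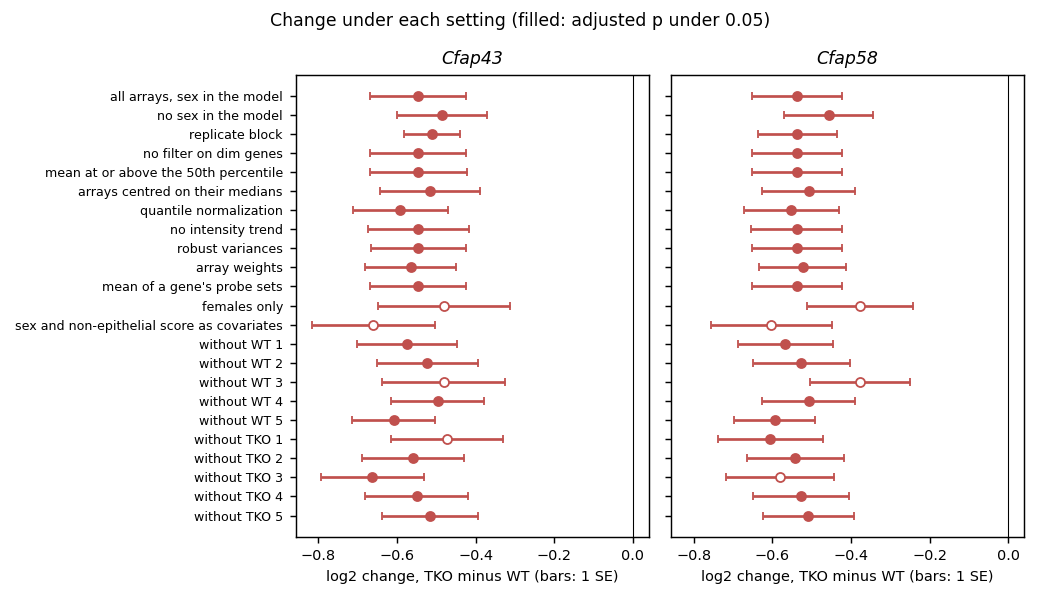
Log2 change (TKO minus WT, x axis, bars of 1 SE) of Cfap43 and Cfap58 in the fit with all arrays and in 22 other settings (y axis); filled circles passed an adjusted p of 0.05. All circles lie left of 0, from -0.66 to -0.47 for Cfap43 and from -0.60 to -0.38 for Cfap58.

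Cfap43 and Cfap58 are neighbours on chromosome 19 by the RefSeq gene order, with 3 protein-coding genes between them. This was looked at after their values were seen. Gsto1 and Gsto2, glutathione transferases of the omega class, lie between them and had log2 changes of 0.41 (limma adjusted p = 0.187) and -0.31 (limma adjusted p = 0.146), in opposite directions, and the remaining one, Itprip, was not tested. On the outer sides, Sfr1 next to Cfap43 was at 0.08 and Sorcs3 next to Cfap58 at 0.01, and neither passed.

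The 7 inner proteins of the doublet, which line the microtubules from within, gave no call, and their median change was -0.13. Cfap77, a protein of the B tubule, read 8.39, 8.46, 8.79, 8.71 and 7.98 in WT and 8.06, 8.12, 8.11, 7.89 and 7.90 in TKO embryos. Its pattern repeats that of Cfap44: 4 WT embryos above all TKO embryos and WT 5 among them (log2 change -0.49, SE 0.14, limma adjusted p = 0.0757). Cfap52, which seals the inner junction of the doublet, read 10.03, 10.31, 10.33, 10.11 and 10.01 in WT and 9.95, 10.04, 10.03, 9.80 and 9.78 in TKO, a change of -0.24 with groups that overlapped (limma adjusted p = 0.158). Without WT 5, Cfap44, Cfap77 and Cfap97d2 passed as well, with changes of -0.40, -0.58 and -0.43 (limma adjusted p = 0.0119, 0.00761 and 0.0055). In that fit 2.39% of all genes were lower, against 1.12% with all arrays.

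The other 5 inner proteins changed less. Cfap45, a partner of Cfap52 in the B tubule, was at -0.14, and Cfap53, known for its part in left-right asymmetry, at -0.13. Cfap161 was at -0.01, Cfap20, a component of the inner junction, at 0.01, and Cfap126, also called Flattop and involved in docking basal bodies, at 0.05. Cfap20 ranged from 9.30 to 9.56 in WT and from 9.26 to 9.58 in TKO embryos, so the genotypes covered nearly the same range.

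Among 8 central apparatus genes none passed, and the median change was -0.08. Cfap221, known from mice with primary ciliary dyskinesia, read 8.37, 8.63, 8.67, 8.40 and 8.09 in WT and 8.26, 8.22, 8.29, 8.11 and 8.14 in TKO, with WT 5 the lowest of all 10 (log2 change -0.25, SE 0.11, limma adjusted p = 0.238). Cfap47, an X-linked gene, went the other way: 8.45, 8.67, 8.47, 8.39 and 8.19 in WT against 8.53, 9.02, 8.84, 8.65 and 8.51 in TKO (log2 change 0.26, SE 0.12, limma adjusted p = 0.252). Its groups overlapped, and the TKO excess was 0.26 among females and 0.26 among males. Cfap46 and Cfap74, which belong to one projection of the central pair, were at -0.10 and 0.0038. Cfap65 was at -0.21, Cfap70 at -0.06, Cfap99 at -0.27 with the widest SE of any tested member (0.21), and Cfap69, needed in sperm tails and olfactory cilia, at 0.05.

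Cfap298 and Cfap300 act in the cytoplasm, where dynein arms are assembled before transport into the cilium. Cfap298 read 9.65, 9.77, 9.73, 9.84 and 9.61 in WT and 9.75, 9.82, 9.89, 9.75 and 9.71 in TKO, a change of 0.08 (SE 0.068, limma adjusted p = 0.574). Cfap300 read 8.43, 8.73, 8.62, 8.59 and 8.28 in WT and 8.38, 8.64, 8.54, 8.26 and 8.23 in TKO, a change of -0.12 (SE 0.11, limma adjusted p = 0.613). For both genes the genotypes overlapped over most of their range.

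The remaining members are proteins of the ciliary base, the sperm tail or unknown place. Cfap20dc, a little-studied gene named for its domain, had WT values of 8.41, 8.61, 8.47, 8.46 and 8.44 and TKO values of 8.69, 8.68, 8.75, 8.60 and 8.57. It had the smallest limma p of the members above 0, with WT 2 the one WT embryo inside the TKO range (log2 change 0.21, SE 0.066, limma adjusted p = 0.0927, exact permutation p = 0.0238). WT 2 was also the one WT embryo inside the TKO range for Cfap36 and Cfap47 (exact permutation p = 0.0238 and 0.0556). Cfap36, which binds small Arl GTPases, was at 0.16, Cfap97 at 0.04 and Cfap410, a basal body protein, at 0.02. Cfap97d2 was at -0.33 and Cfap299 at -0.25. Cfap97d1 lay below the filter at 4.58 and was not tested: it read 2.99 to 3.21 in WT and 2.83 to 3.59 in TKO embryos.

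Differences between embryos of one genotype were as large as those between genotypes, and most Cfap genes shared them. WT 3 was the highest WT embryo for 21 of the 31 tested members and WT 5 the lowest for 26. In TKO, TKO 2 was highest for 18 and TKO 3 for 11, and TKO 5 was lowest for 15. WT 2 lay above the member's own median over 10 arrays for 29 of 31 genes, WT 5 and TKO 5 for 2 each. By this count WT 3 and TKO 2 were at 25 each, TKO 3 at 24 and WT 4 at 22. The median deviation of the members from their own means ran from -0.19 in WT 5 to 0.28 in WT 3 and, in TKO, from -0.17 in TKO 5 to 0.08 in TKO 3. These genes were read from the same 10 arrays and are not independent of one another.

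**Figure D4:**
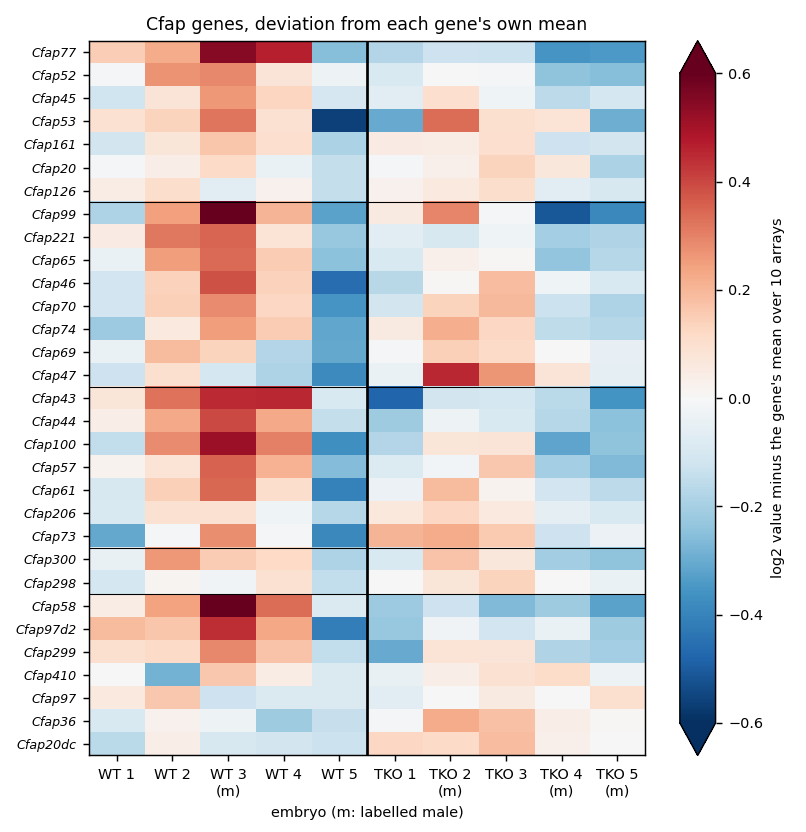
Each tested Cfap gene (rows, grouped by role in the order of the plot of changes) in each embryo (columns, m for male) as the log2 value minus that gene's mean over the 10 arrays; red is above and blue below. The columns of WT 2, WT 3, WT 4, TKO 2 and TKO 3 are mostly red and those of WT 5 and TKO 5 mostly blue, and most TKO cells are paler.

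The spread of the Cfap genes was wider in WT than in TKO embryos. The SD was larger in WT for 26 of 31 members (83.9%), with medians of 0.21 in WT and 0.11 in TKO, while over all genes tested it was larger in WT for 52.6%, with medians of 0.15 and 0.14. On the same arrays, the SD was also larger in WT for 31 of 32 radial spoke, central pair and nexin-dynein regulatory genes, 23 of 28 dynein genes, 12 of 14 regulators and 10 of 15 tektins and inner proteins, but for 15 of 31 intraflagellar transport genes. Genes that move together over the same embryos are not separate observations. The mean deviation of the members per embryo had an SD of 0.19 in WT and 0.11 in TKO. The sex mix differed as well, and a difference in spread was not tested. For 30 of 31 members the WT range was larger than the size of the change between genotypes, the exception being Cfap20dc. Markers of multiciliated cells had their highest score in WT 3 (0.25) and their lowest in WT 5 (-0.23), where the score of the 9 olfactory neuron markers was highest (1.496). The score is the mean deviation of the listed genes from their own means. Multiciliated scores ran from -0.23 to 0.25 in WT and from -0.22 to 0.07 in TKO, and olfactory scores from -0.76 to 1.496 and from -0.84 to 0.78. Between genotypes, 7 of the 9 multiciliated markers were below 0 in TKO, with a median change of -0.08: 4 were lower and 1, Foxj1, higher at an unadjusted limma p under 0.05, and none passed. Among the 4, all singled out after their values were seen, Ccdc153 was at -0.42, Sntn at -0.53, Tmem212 at -0.44 and Tppp3 at -0.21. Their part in the Cfap values was not tested.

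Sex was unbalanced, with a single WT male, and the members had no median decrease among females. Among females, 14 of 31 members were lower in TKO and the median difference was 0.035. Set against WT 3 alone, 25 of 31 were lower in the TKO males, with a median of -0.32, and for 21 of 31 WT 3 was above all 3 TKO males. A fit with an interaction of sex and genotype called none of the 31 members (limma, lowest adjusted p 0.994), while 3 had an unadjusted p under 0.05 beside 4.24% of all genes, and the estimate was lower in males for 30 of 31. For these counts of direction, and of WT 3 above the TKO males, no share over all genes is given. The members moved together (median correlation between pairs 0.73, genotype means removed), so the counts are not separate observations. One WT male and its sex cannot be told apart. Skeletal muscle markers were lower in TKO with an unadjusted p under 0.05 for 9 of 9 genes, of which 1 passed, with a median change of -0.74, and their score ran from -0.55 to 1.17 in WT, highest in WT 3, and from -0.65 to 0.27 in TKO. Mesenchyme markers were below 0 in 11 of 11, 6 of them at an unadjusted limma p under 0.05 and 1 past the threshold, with a median of -0.41. Endothelial markers were below 0 in 8 of 8, with 3 at an unadjusted limma p under 0.05, 1 past the threshold and a median of -0.30. Squamous markers were below 0 in 9 of 9 with a median of -1.25, and leukocyte markers in 7 of 8 with a median of -0.23, with none in either list at an unadjusted limma p under 0.05. Secretory cell markers went the other way, above 0 in 7 of 7, with 3 at an unadjusted limma p under 0.05, none past the threshold and a median of 0.20. Cartilage markers were below 0 in 4 of 8, with a median of -0.015 and 2 higher at an unadjusted limma p under 0.05. Epithelial markers were also below 0 in 4 of 8 (median -0.013), and olfactory neuron markers in 2 of 9 (median 0.19). Glia and basal cell markers were each below 0 in 4 of 5 (medians -0.06 and -0.21), with 1 basal marker past the threshold. The covariate fit above used markers of mesenchyme, endothelium, skeletal muscle, cartilage, leukocytes and glia, and no squamous or secretory markers. Beyond that fit, the part of all these markers in the Cfap changes was not tested.

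A binding motif that the rule did not use was more frequent in the promoters of the Cfap genes than in all promoters, though most of them lacked it. RFX factors, which switch on ciliary genes together with FOXJ1, bind the X-box, searched here on both strands as GTTNCC, a gap of 2 bases and then GGNAAC, and as the short site GTTGCC, which the full site can contain. Of 32 members, 27 matched RefSeq promoters (GRCm38.p6, 250 bases before to 50 after a start), 30 in all. The short site stood in 12 of 30 (40%) against 12.5% of 32851 promoters of the same length, and the full site in 2 of 30 (6.67%) against 0.451%. By gene, 11 of 27 members held the short site and 2 of 27 the full one, with no count by gene for all promoters. Cfap74 and Cfap126 gave more than 1 promoter each, so the 30 are not separate observations. Those of Cfap74 overlap and hold the same short sites. The median GC content was 58.8% in members and 52.7% in all promoters. The forkhead core GTAAACA stood in 2 of 30 (6.67%, 3.65% of all) and an E2F core, TTTCCCGC or TTTGGCGC, in 1 of 30 (3.33%, 1.56% of all). Every match is a match of letters, not a measured binding site. Those of the 2 genes that fell and of the 2 with a full X-box are shown, 5′ to 3′, with each match in capitals:
Cfap43, chr19:47837312-47837611, minus strand: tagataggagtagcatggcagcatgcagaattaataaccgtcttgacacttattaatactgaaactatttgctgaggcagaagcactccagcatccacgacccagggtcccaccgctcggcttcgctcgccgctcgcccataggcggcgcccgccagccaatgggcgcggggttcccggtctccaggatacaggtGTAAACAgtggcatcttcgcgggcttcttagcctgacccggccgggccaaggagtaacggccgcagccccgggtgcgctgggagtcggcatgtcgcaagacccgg
Cfap58, chr19:47937462-47937761, plus strand: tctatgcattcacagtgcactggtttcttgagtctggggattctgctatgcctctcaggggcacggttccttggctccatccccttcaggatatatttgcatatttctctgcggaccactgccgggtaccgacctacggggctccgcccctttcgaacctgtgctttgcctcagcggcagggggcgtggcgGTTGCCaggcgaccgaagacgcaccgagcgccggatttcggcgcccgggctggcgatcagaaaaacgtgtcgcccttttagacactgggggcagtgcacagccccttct
Cfap20dc, chr14:8666241-8666540, minus strand: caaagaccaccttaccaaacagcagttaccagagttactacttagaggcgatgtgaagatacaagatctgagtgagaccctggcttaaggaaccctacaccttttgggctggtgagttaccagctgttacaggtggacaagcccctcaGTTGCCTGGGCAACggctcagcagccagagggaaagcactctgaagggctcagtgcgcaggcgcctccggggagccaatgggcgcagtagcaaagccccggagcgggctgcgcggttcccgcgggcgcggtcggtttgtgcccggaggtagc
Cfap298, chr16:90934800-90935099, minus strand: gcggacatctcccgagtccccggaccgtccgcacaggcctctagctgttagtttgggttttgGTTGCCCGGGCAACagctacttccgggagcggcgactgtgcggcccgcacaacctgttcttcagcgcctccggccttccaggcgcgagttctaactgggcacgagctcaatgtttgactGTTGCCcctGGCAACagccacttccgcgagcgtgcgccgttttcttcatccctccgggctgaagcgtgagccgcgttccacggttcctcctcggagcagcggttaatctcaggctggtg
Cfap58 holds 1 short X-box site from base 192, counted from the 5′ end, and Cfap43 the forkhead core from base 196. Cfap20dc has its full X-box from base 149 and Cfap298 from base 63. The 2 genes with the full site had log2 changes of 0.21 and 0.08, and the 2 that fell have none in this window. Only 2 of 27 genes hold the full site, so most members that did not fall lack it as well. A link between the site and the change was not tested.

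Other genes of the cilium gave a setting for these values, from lists of genes not named Cfap. Of 32 radial spoke, central pair and nexin-dynein regulatory genes, 2 fell, none rose and 30 did not pass, and the median change was -0.21. Drc3 and Tcte1, both of the nexin-dynein regulatory complex, fell by 0.39 and 0.53 on the log2 scale (limma adjusted p = 0.0441 and 0.0450), and Hydin, a giant central pair protein, was at -0.60 and missed the threshold (limma adjusted p = 0.0646). Of 28 axonemal dyneins and assembly factors 1 rose, none fell and 27 did not pass, with a median of -0.07: Dnah8, an outer arm heavy chain known from sperm, rose from 8.47 ± 0.16 to 9.16 ± 0.11 (SD, n = 5 each, limma adjusted p = 0.00161). Of 15 tektins and other inner proteins, 1 fell (Tekt3, -0.82), with a median of 0.01, and of 31 intraflagellar transport genes 2 fell (Ift43, -0.30, and Wdr34, -0.42), with a median of -0.10. By contrast, of 14 regulators of motile ciliogenesis 8 rose and none fell, with a median of 0.48, led by Cdc20b (1.41), whose intron holds the deleted Mir449 cluster, and Gmnc (1.55), with Ccno at 0.76 and E2f5 at 0.55. The place of the other regulators, Ccno among them, relative to this deletion was not looked at. A local effect of the deletion on these genes was not tested. Foxj1, singled out after its values were seen because it is a master regulator of motile ciliogenesis, went from 10.86 ± 0.10 to 11.04 ± 0.09 (SD, n = 5 each, log2 change 0.21, limma adjusted p = 0.0784). Whether the Cfap genes and these lists differ from one another was not tested.

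**Figure D5:**
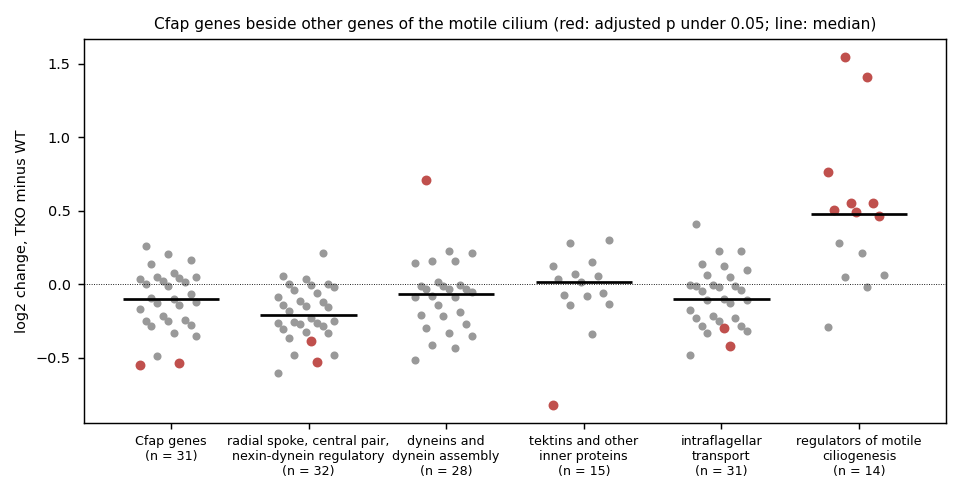
Log2 change (TKO minus WT, y axis) of each tested gene, 1 point per gene, for the 31 Cfap genes and 5 lists of other motile cilium genes (x axis); red points passed an adjusted p of 0.05 and lines are medians. The Cfap median is -0.10, and the regulators, with a median of 0.48, hold 8 red points above 0.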

How the data were processed

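Deposited values were RMA values on the log2 scale, made by the authors with the Affymetrix Expression Console per the submitters' processing notes; the sources used here do not give its version or the summary level. RMA brings arrays to a common distribution, so a shift shared by all genes would be removed. Of 41345 probe sets, 23521 had 1 gene symbol in the platform's annotation, 1814 several and 16010 none. The brightest probe set per gene by mean over 10 arrays was kept (22180 genes), and genes with a mean below the 25th percentile (4.58) were not tested. limma 3.58.1 in R 4.3.3 fitted sex and genotype to 16635 genes, with variances moderated along an intensity trend; tests were two-sided and Benjamini-Hochberg adjusted p was held to 0.05. Exact two-sided permutation tests used 252 assignments. Members, roles, lists and alternatives were chosen with earlier results of these data known. Every member is named; values on each array are given for members past the threshold, without overlap, or with the 2 smallest p per role. Scripts were tested on simulated data. Symbols of all 32 members matched RefSeq by Entrez ID. Same-numbered WT and TKO arrays did not deviate together (correlation above 0.1 for 1 of 5 numbers). Alternatives changed the model, filter, scaling, probe set rule or arrays kept. Promoter and microRNA sequences and gene order are RefSeq's (GRCm38.p6 for sequences); the array's build is not stated. Figures used matplotlib 3.10.9.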

Additional observations from a re-analysis of the deposited data

Results flagged for a closer look

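Of 64 groups of 5 arrays screened (32 members in each genotype), 1 held an array far from the rest, where chance gives about 1 in 20. It was Cfap53 in WT 5, at 7.91, while the other 4 WT arrays lay between 8.56 and 8.79. WT 5 was also the lowest WT array for most other members. The TKO values of Cfap53 ran from 8.17 to 8.80.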

How the results depend on the processing

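No member was higher in TKO in any of the 22 alternatives. The number lower, 2, stayed within 1.5 times in 14 of them, was 4 with array weights, 0 among females only and 0 with sex and the non-epithelial score as covariates, and ran from 0 (without WT 3) to 5 (without WT 5) when 1 array was left out, with 1 without TKO 1 and 1 without TKO 3. With the replicate number as a block it was 4 (Cfap43, Cfap44, Cfap58 and Cfap77); the numbers do not pair the embryos. The median change of the members, -0.10, was -0.23 after adding the non-epithelial marker score and 0.035 among females only, -0.036 with no sex in the model and -0.15 with quantile normalization, and ran from -0.18 (without TKO 3) to 0.035 (without WT 3). With sex in the model the fit without WT 3 takes the genotype effect from females alone, so it is no separate check. Over all genes, 916 passed, 52 among females only and 150 with the covariate, and between 211 (without WT 3) and 1284 (without WT 5) with 1 array left out; 551 passed without TKO 1 and 302 without TKO 3. Centring arrays on their medians moved the median of all genes to 0.030 and that of the members to -0.068. The interaction of sex and genotype was added after the data were seen. Other causes of these shifts were not tested. No detection calls or scanner files were used, so signal over background is not known.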
